A study of Drosophila melanogaster with 4 samples.

Results

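The gene *cher* encodes filamin, a large protein that crosslinks actin filaments, and its RNA was followed here in *Drosophila melanogaster* larvae mutant for *ash2*, together with 6 genes of the general cytoskeleton. These were the cytoplasmic actin genes *Act5C* and *Act42A*, the profilin gene *chic*, the cofilin gene *tsr*, and the tubulin genes *alphaTub84B* and *betaTub56D*. *cher* was chosen by its log2 ratio, since it was lower in the mutant in these same data, and the other 6 were listed to see whether cytoskeleton genes were lower in general. The values below therefore describe the 7 genes, and where a gene of the 7 is said to have met the call used for all genes, that too is a description and no test of it. Of these 7, 4 had a probe with their symbol in the annotation used, out of 12058 genes with a probe, and all 4 were among the 1659 genes that could be tested. No probe carried the symbol of *Act5C*, *Act42A* or *alphaTub84B*, so these 3 genes were not analysed here.

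Filamin dimers bind actin filaments at one end of each chain and tie them into networks and to proteins of the membrane. In the fly the gene is best known from the ring canals of the female germ line, and filamin also sits at the Z-discs of muscle. Actin filaments grow from monomers that profilin delivers and are cut by cofilin, while microtubules are built from pairs of alpha- and beta-tubulin. *ash2* is a trithorax group gene, and proteins of that group act on chromatin to keep genes switched on.

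Mutant larvae were w1118;+;ash2I1, isogenized from the wild-type strain, and the wild-type larvae were the isogenic w1118;+;+ line, so both carried w1118. The ash2I1 chromosome was kept over the balancer TM6c, and larvae without the balancer's dominant marker were taken. Chromosomes X, Y and 2 had been brought in from the isogenic line, whereas chromosome 3, which carries both *ash2* and *cher*, had not. Both were whole larvae of the third instar, staged by the blue food in the gut, and their RNA was compared on 4 two-colour arrays. The mutant RNA came from 2 extractions, each labelled with Cy5 and hybridised to 2 arrays. Every array had the same Cy3-labelled pool of wild-type RNA. With the dyes thus fixed, a difference of the dyes at a probe and a difference of genotype cannot be told apart. Each value is thus a log2 ratio that likely reads mutant over wild type, a direction taken from the dyes in the labels and the usual order of the software, since the values do not state it.

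Arrays 1 and 2, of extraction 1, held 3275 and 2091 of 16416 possible values, and arrays 3 and 4, of extraction 2, held 3513 and 1108. The array medians lay between -0.02 and 0.04. The SD was not alike, since over the 278 genes measured on every array it was 1.13, 0.75, 0.93 and 0.58 on arrays 1 to 4. The median absolute deviation over all values of an array was 0.28, 0.28, 0.28 and 0.29. Arrays that shared an RNA extraction were averaged, which leaves n = 2, and the pool stands as a single control whose own spread is not seen. For 1301 of the 1659 tested genes extraction 2 rests on array 3 alone. The fit in limma called 110 of the 1659 genes (6.63%), 63 higher (3.8%) and 47 lower (2.83%) in the mutant, where a call needed a 2-fold change or more and an adjusted p below 0.05. The number of arrays limits the precision of every value below.

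*cher* lies on arm 3R and was read by 1 probe. Its log2 ratio was -1.44 on array 1, -0.74 on array 2 and -1.11 on array 3, and array 4 gave no value. All 3 ratios were below 0, the one on array 2 being the nearest to it. The means of the extractions were -1.09 for extraction 1 and -1.11 for extraction 2, so the 2 extractions were nearer to each other than the 2 arrays of extraction 1 were, although they carried the same RNA. Extraction 2 rests on array 3 alone. The overall log2 ratio was -1.10 ± 0.13 (SE, n = 2), which is 2.14-fold lower in the mutant, and 49 other tested genes were as low or lower. On array 1, 62 of 1529 tested genes (4.05%) had a lower ratio than *cher*, on array 2, 85 of 1155 (7.36%), and on array 3, 53 of 1620 (3.27%). Without array 1 the ratio was -0.92, which is under a 2-fold change. In whole larvae, fewer cells that use a gene and less of its RNA in each cell cannot be told apart.

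*betaTub56D*, the most widely used beta-tubulin gene of the fly, was the nearest to *cher* among the other 3 measured genes. The file held 2 of its probes, of which 1 gave values. Its log2 ratio was -1.31, -0.71, -0.76 and -0.07 on arrays 1 to 4. It was thus low on the first 3 arrays and near 0 on array 4, where *cher* had no value. The means of its extractions were -1.01 and -0.41, and the overall ratio was -0.71 ± 0.19 (SE, n = 2), or 1.64-fold lower in the mutant.

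**Figure D1:**
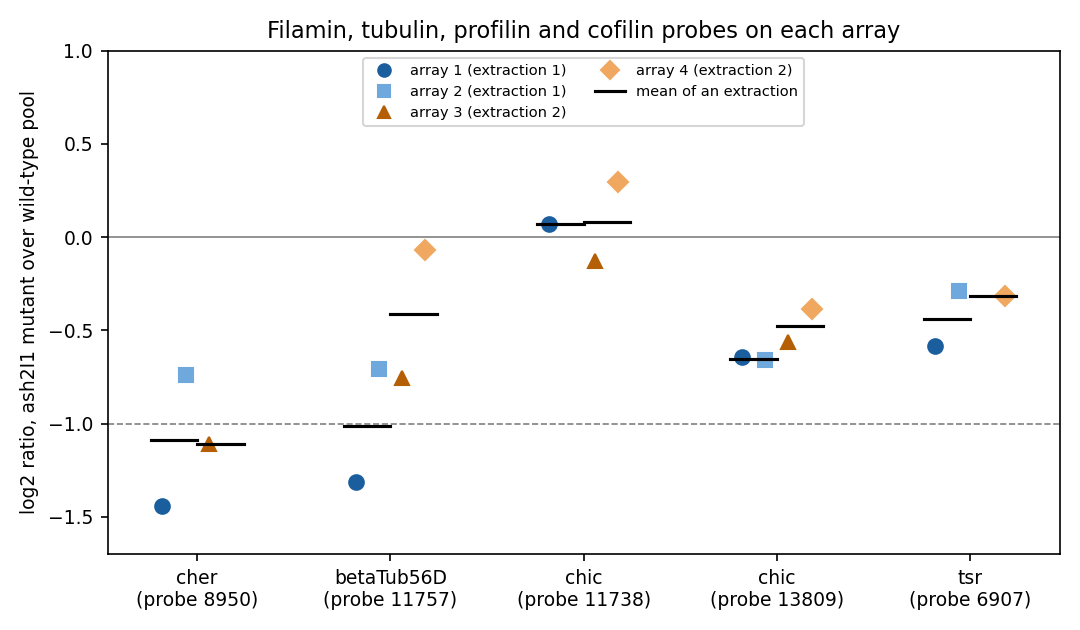
Log2 ratios (vertical axis, mutant over wild-type pool) of the 5 measured probes of *cher*, *betaTub56D*, *chic* and *tsr* (horizontal axis), with 1 point for each array and a black line for the mean of each extraction. The dashed line marks a 2-fold lower level. *cher* and *betaTub56D* are both low on arrays 1 to 3, *betaTub56D* is near 0 on array 4, and the 2 probes of *chic* lie apart.

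Because *cher* was not measured on array 4, the 2 genes were also set side by side on the arrays they share. *cher* was lower than *betaTub56D* by a difference in log2 ratio of -0.13 on array 1, -0.03 on array 2 and -0.35 on array 3. Their mean log2 ratios over these 3 arrays were -1.10 for *cher* and -0.93 for *betaTub56D*. Both stood low among the tested genes of each of these arrays, since 4.84%, 7.88% and 7.28% of genes had a lower ratio than *betaTub56D* on arrays 1 to 3. On array 4, 40.8% of 358 genes were lower. Without array 4 the ratio of *betaTub56D* was -0.88. The gap between the overall values of the 2 genes is therefore larger than the gap on shared arrays, and whether it would hold on a full set of arrays was not tested.

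**Figure D2:**
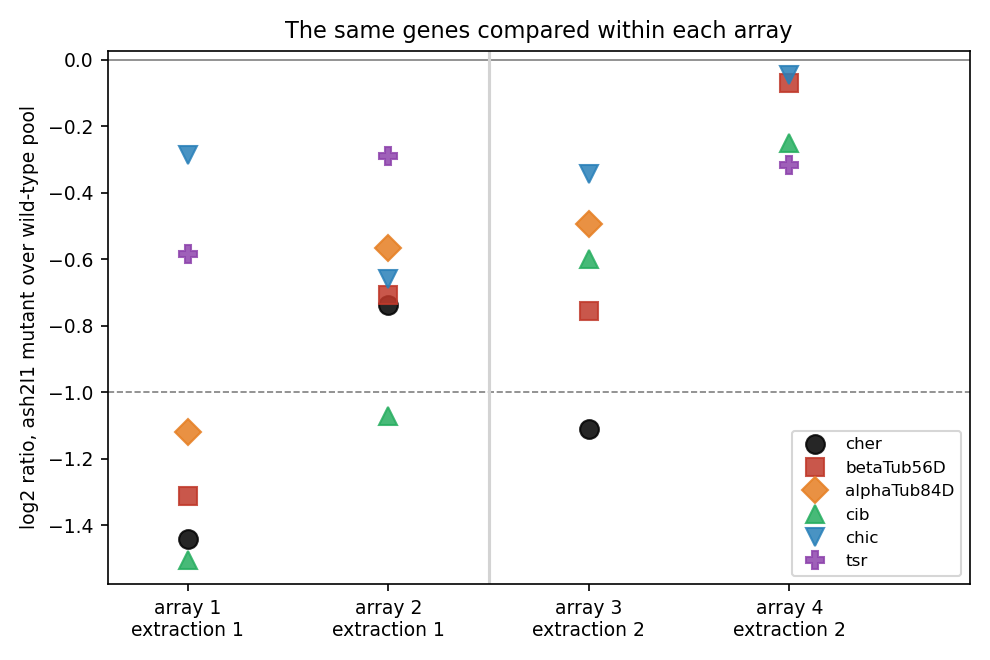
Log2 ratios (vertical axis, mutant over wild-type pool) of 6 cytoskeleton genes on each of the 4 arrays (horizontal axis), so that genes can be compared within an array. On array 2 *cher* at -0.74 and *betaTub56D* at -0.71 nearly coincide, *cib* is lower than *cher* on arrays 1 and 2, and *cher* and *alphaTub84D* have no point on array 4.

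*chic*, the profilin gene, had 3 probes, of which 2 gave values that differed. Probe 13809 read -0.64, -0.66, -0.56 and -0.39 on arrays 1 to 4. Probe 11738 read 0.07, -0.13 and 0.29 on arrays 1, 3 and 4. One probe was thus below 0 on every array and the other lay around 0, with a difference between them of 0.72, 0.43 and 0.68 on the shared arrays. Averaged, *chic* had a log2 ratio of -0.33 ± 0.14 (SE, n = 2), with -0.47 in extraction 1 and -0.20 in extraction 2, and with probe 13809 alone it had -0.56. The value of the gene on array 2 comes from probe 13809 alone.

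*tsr*, which encodes the filament-severing protein cofilin, was read by 1 probe. Its log2 ratio was -0.58, -0.29 and -0.32 on arrays 1, 2 and 4, with no value on array 3. All 3 ratios were below 0 and closer to it than those of *cher* on the arrays they share, where *cher* had -1.44 and -0.74. The overall ratio was -0.38 ± 0.13 (SE, n = 2), 1.30-fold lower in the mutant. Of the 4 measured genes only *cher* met the call used across all genes, where 6.63% of genes were called, 2.83% as lower and 3.8% as higher. As *cher* was chosen for that value, nothing is read from this count.

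A wider set of 142 cytoskeleton genes was then examined by function, of which 71 had a value and 47 were tested. Leaving out *cher*, none of 46 tested genes was called in limma, whereas 6.63% of all genes were. At an unadjusted p under 0.05 there were 7 of 46, 6 lower and 1 higher in the mutant, against 568 of 1659 among all genes. The log2 ratios of the 46 lay between -0.86 and 0.37 with a median of -0.02, beside a median of 0.01 over all tested genes, and 26 were below 0. The lists were drawn up with earlier results of these data known, so the counts are a description.

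Filamin shares its task with other crosslinkers, and 6 of these were tested with none called. As 6.63% of all tested genes were called, nothing is read from such counts in this small list or those below. *Fim*, which encodes the bundling protein fimbrin, had a log2 ratio of 0.37 on each of arrays 1 to 3 (adjusted p = 0.135, limma). The spectrin genes *alpha-Spec* and *beta-Spec* had 0.05 ± 0.13 and -0.004 ± 0.13, *kst*, for a heavier beta-spectrin, 0.36 ± 0.17, and *shot*, which links actin to microtubules, 0.01 ± 0.13 (SE, n = 2). *Actn*, for alpha-actinin, had -0.07 ± 0.18. The lowest of these 6 was *Actn*, against -1.10 for *cher*. Of the list's members measured on array 3 alone, *sn*, for the bundling protein fascin, had -0.39, *hts*, for adducin, -0.17 and *Ank*, for ankyrin, 0.08.

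Among genes for actin monomers and filament turnover, 5 of 6 tested genes were below 0, with a median of -0.29, and none was called. The lowest was *cib*, which encodes ciboulot, a protein with thymosin repeats that binds actin monomers. Its log2 ratio was -1.50, -1.07, -0.60 and -0.25 on arrays 1 to 4. It was lower than *cher* on arrays 1 and 2 and higher on array 3, and the means over these shared arrays were -1.10 for *cher* and -1.06 for *cib*. With array 4 the overall ratio of *cib* was -0.86 ± 0.25 (SE, n = 2, adjusted p = 0.0999, limma), so it did not pass. The genes of the capping protein, *cpa* and *cpb*, had -0.20 ± 0.13 and -0.25 ± 0.13, and *GMF*, whose product takes apart filament branches, had 0.23 ± 0.13.

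Of the tubulin genes, 3 were tested. *alphaTub84D*, which encodes an alpha-tubulin, had log2 ratios of -1.12, -0.57 and -0.49 on arrays 1 to 3 and an overall ratio of -0.67 ± 0.15 (SE, n = 2, adjusted p = 0.0651, limma). It is a close copy of *alphaTub84B*, so a probe may read both. *betaTub97EF* had -0.09 on array 1 and 0.59 on array 3, and 0.25 ± 0.21 overall. The overall ratios of the beta-tubulin genes *betaTub56D* and *betaTub97EF* thus lay on opposite sides of 0, though both genes were below 0 on array 1. *betaTub60D* was measured on array 3 alone, at -0.52.

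**Figure D3:**
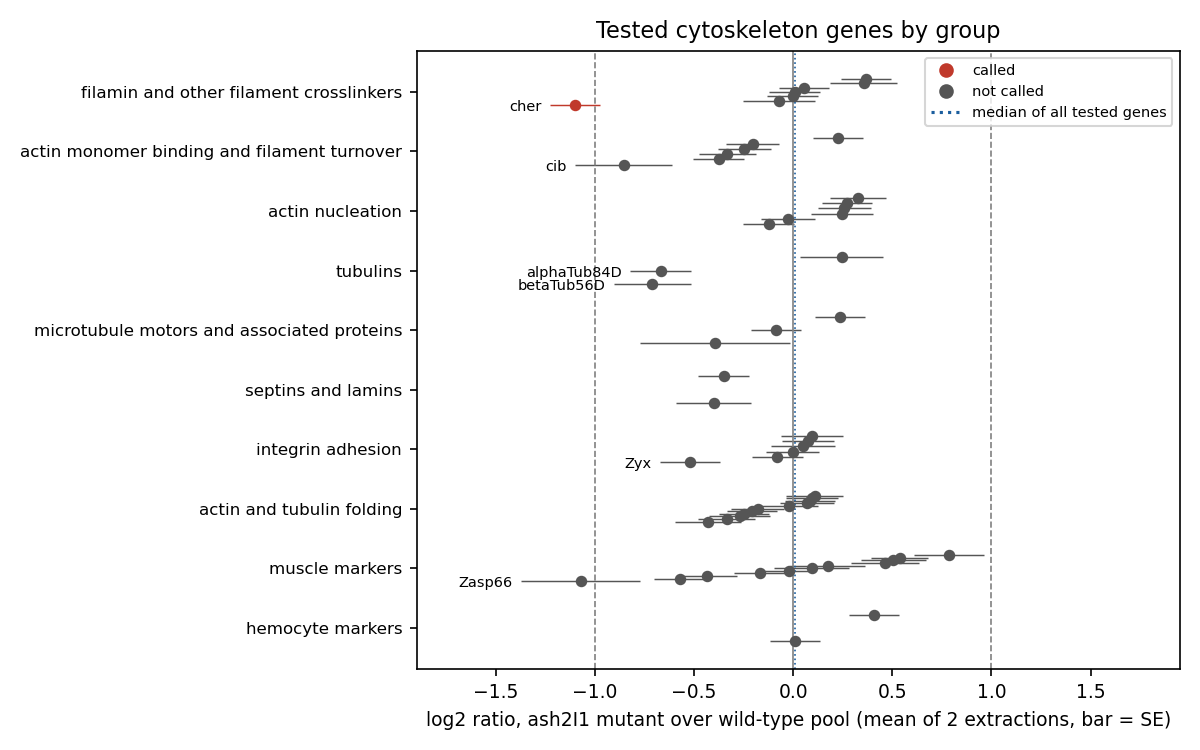
Log2 ratios (horizontal axis, mutant over wild-type pool, mean of 2 extractions with the SE of the fit as bars) of the tested genes of 8 cytoskeleton groups and of muscle and hemocyte markers (vertical axis). *cher* is the only called gene, *cib*, *betaTub56D* and *alphaTub84D* are next among the cytoskeleton groups, *Zasp66* is the lowest muscle marker at -1.07, and the dotted line marks the median of all tested genes at 0.01.

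Of 6 tested genes that start new actin filaments, 4 were above 0 and 2 below, with a median of 0.25, and none was called or had an unadjusted p under 0.05 in limma. *Arpc1*, of the Arp2/3 complex that branches filaments, had a log2 ratio of 0.33 ± 0.14 (SE, n = 2), *Arpc2* of the same complex -0.12 ± 0.13 and *HSPC300*, of the complex that activates it, 0.25 ± 0.16. The septin genes *Septin1* and *Septin2*, for proteins that form filaments beside actin, had -0.35 ± 0.13 and -0.40 ± 0.19.

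Proteins that hold actin to the membrane at integrin contacts were represented by 6 tested genes with a median of 0.02. The lowest was *Zyx*, for the adhesion protein zyxin, with a log2 ratio of -0.52 ± 0.15 (SE, n = 2, adjusted p = 0.101, limma). The integrin genes *mys* and *if* had -0.08 ± 0.13 and 0.07 ± 0.13, and *rhea*, for talin, which joins integrins to actin, -0.002 ± 0.13. Of 11 tested genes that fold actin and tubulin, 7 were below 0 with a median of -0.18. The lowest was *CCT7*, of the ring-shaped chaperonin, at -0.43 ± 0.17, and *Pfdn4*, of its partner prefoldin, had -0.18 ± 0.13. Of microtubule motors and their partners 3 were tested, *Dlic*, *sw* and *stai*, between -0.40 and 0.24, and the tubulin-binding *stai* was -1.12 on array 1 but 0.33 on array 3.

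Markers of other tissues were read in the same larvae. Of the muscle markers 11 were tested and none was called, with 5 below 0 and 6 above, a median of 0.09, and values from -1.07 for *Zasp66*, a gene of the Z-disc, to 0.78 for *Mlp60A*, both named after their values were seen. Of 13 hemocyte markers, for the blood cells, 2 were tested, *Col4a1* at 0.41 ± 0.13 (SE, n = 2) and *eater* at 0.01 ± 0.13. Of the others, *PPO2* had 2.32 and *He* 0.06 on array 1 alone, *crq* had -0.41 and -0.19 on arrays 1 and 2, and the remaining markers, *Hml* and *NimC1* among them, had no value. Of 5 tested fat body markers 3 were called lower, *Fbp1*, *Lsd-1* and *Lsp2*, and the list had a median of -1.02. The other fat body markers, *apolpp* at -0.88 ± 0.14 and *Fbp2* at 0.01 ± 0.13, were not called. Of 6 tested salivary gland markers 2 were called lower, *Eig71Ee* and *Sgs5bis*, with a median of -1.41, while *ng1* and *ng2* lay above 0 at 0.80 ± 0.25 and 0.80 ± 0.16 and were not called. The salivary gland marker *ng3* had 1.98 on array 1 alone. No nervous system marker could be tested, and the only one with a value, *elav*, had -0.60 on array 3. The midgut list had a median of 1.21 over 12 tested genes, and its called members were *Amy-d*, *Amy-p*, *Jon44E*, *LysS*, *LysX*, *Mal-A1*, *Ssk* and *alphaTry*, all higher, with *Jon66Cii* and *Mal-A5* lower. All 3 tested epidermis and cuticle markers, *Cpr49Ac*, *Lcp9* and *Pcp*, were called lower, while *Cpr65Av*, with a value on array 1 alone, had 0.57. Beside these counts, 6.63% of all tested genes were called, 2.83% as lower and 3.8% as higher. The part of these tissues in the ratio of *cher* was not tested.

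The neighbours of *cher* on arm 3R were followed in the gene order of the Release 6 assembly. Within 30 annotated genes on either side, 12 of 60 had a value, 6 were tested and none was called in limma, while 2 had an unadjusted p under 0.05. Among all 1659 tested genes 6.63% were called and 568 had an unadjusted p under 0.05, so nothing is read from these counts. The nearest measured gene, *kuk*, of the nuclear lamina, was 3 genes away and read only on array 3, at -0.63. Next came *mRpS11*, of the mitochondrial ribosome, *Ns1*, a nucleolar GTPase gene, and *Dad*, an inhibitor of BMP signalling, with log2 ratios of 0.15 ± 0.13, 0.25 ± 0.14 and 0.15 ± 0.13 (SE, n = 2). *EMC2B* and *MESK4*, 25 and 26 genes away, had -0.66 ± 0.18 and -0.64 ± 0.17. On the other side *m-cup* had 0.64 ± 0.31.

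The called genes nearest to *cher* were *CREG*, *CG14332* and *Sgs5bis*, named after their values were seen, at 37, 54 and 70 annotated genes from it and all on the same side. Within 75 annotated genes, a distance set after the values were seen, they were 3 of 7 tested genes on that side, with *m-cup*, *sds22*, *Prx3* and *Sgs5* not called, and none of 9 tested genes on the opposite side was called. Over all tested genes 2.83% were called lower. The log2 ratio of *CREG* was -1.57, that of *CG14332* -2.39 and that of *Sgs5bis* -3.09, each lower than that of *cher*. *Sgs5*, the next gene after *Sgs5bis*, had -2.78 ± 0.63 (SE, n = 2) and was not called. The salivary glue genes among them also stand in the list of salivary gland markers.

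**Figure D4:**
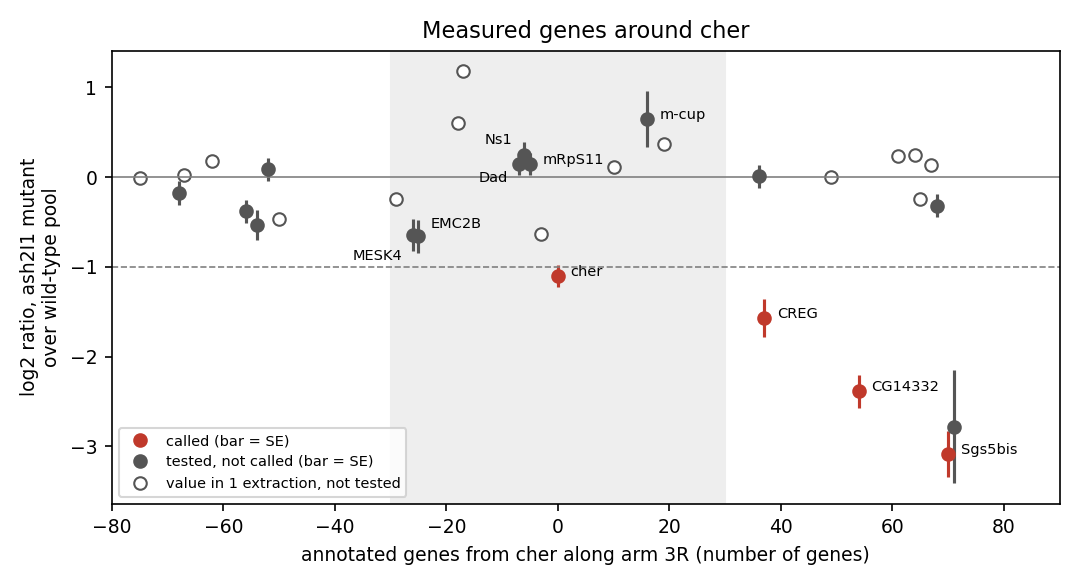
Log2 ratios (vertical axis, mutant over wild-type pool) of all measured genes within 75 annotated genes of *cher* on arm 3R (horizontal axis, number of genes from *cher*). Filled points are tested genes with the SE of the fit, red ones are called, open points have values in 1 extraction only, and the shaded band covers 30 genes on either side, where *cher* is the only called gene.

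The genes most like *cher* were sought by the root mean square difference of the log2 ratios over the 3 arrays on which it was measured, among 991 other genes measured on all 3. The closest was the polyubiquitin gene *Ubi-p5E*, at -1.45, -0.81 and -1.18 (difference 0.06), followed by *RN-tre*, for a Rab regulator, at -1.52, -0.85 and -1.06 (difference 0.08). *Inx3*, for a gap junction protein, *Akap200*, for an anchor of protein kinase A, and *Gs2*, for glutamine synthetase, came next with differences of 0.15, 0.18 and 0.20. *betaTub56D* came 9th with 0.22, *cib* 37th with 0.35, *alphaTub84D* 57th with 0.41 and *chic* 230th with 0.80. *Ubi-p5E*, *RN-tre* and *Akap200* were also measured on array 4, at -0.29, -0.30 and -0.49, each nearer to 0 than on arrays 1 and 3. Of the 5 closest genes only *Gs2* was called, which like *cher* and *Inx3* had no value on array 4. *Ubi-p5E* was lower than *cher* on each of arrays 1 to 3, but with array 4 its ratio was -0.93 and it was not called. The calls therefore do not rank *cher* against these genes, as array 4 gave no value for it. The likeness is a description over 3 arrays of 2 RNA extracts.

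By chromosome, the tested cytoskeleton genes other than *cher* had a median log2 ratio of 0.06 over 15 genes on chromosome 3. On chromosomes X and 2 the median was -0.08 over 30 genes. Among all tested genes the medians were -0.01 over 725 and 0.02 over 912. Tested genes placed elsewhere, such as *Zyx* on chromosome 4 at -0.52, are in neither group. *betaTub56D* and *tsr* lie on arm 2R and *chic* on arm 2L, on a chromosome that was exchanged, while *cher* and *alphaTub84D* lie on the unexchanged chromosome 3. The genotype of chromosome 3 and the mutation cannot be told apart for *cher*.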

How the data were processed

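The authors scanned 4 two-colour arrays with GenePix, removed spots of poor quality, applied normexp background correction in limma, and normalised with OLIN, first within arrays and then between the 4 arrays by its median absolute deviation method. No source used here gives a version for either package. The deposited values are log2 ratios with removed spots empty. Their base and direction are not stated and follow the limma convention and the dyes. No scanner file was read.

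A single gene symbol was given for 13164 of 16416 probes. Symbols were updated with a gene table of the Release 6 assembly, used for names and gene order only. Values were averaged over a gene's probes on an array, then over the arrays of each extraction, and 1659 genes had a value in both extractions. The mean ratio was set against 0 in limma 3.58.1 (R 4.3.3), with eBayes and p-values adjusted by Benjamini-Hochberg over all 1659 genes. The fit was also run on simulated ratios whose spread was alike on every array, unlike that of the real arrays, so nothing is concluded from it. SE is the moderated standard error. The probe of *ash2* gave no value, so the mutated gene could not be checked. The 2 extractions are the only replicates, and eBayes draws a gene's spread between them towards the spread over all tested genes. SE and p-values thus largely reflect that shared spread and not the gene's own. For *cher* the SD between extractions was 0.015, whereas its moderated SE was 0.13.

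The genes and lists were chosen with earlier results of these data known. Named genes were the 7 genes, called genes of the cytoskeleton lists and up to 4 further members of each list, the 5 genes most like *cher*, tested genes within 30 annotated genes of it, and called tissue markers. Further genes were named after their values were seen. The values of 1 list, with 3 tested genes, are not reported here. Alternatives were separate arrays, a random block for the extraction, other scalings and filters, 1 probe per gene, robust moderation, added unnamed probes, and leaving out each array.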

Additional observations from a re-analysis of the deposited data

How the results depend on the processing

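The log2 ratio of *cher* kept its sign in the 11 alternatives that could test it. It was -1.12 with each array scaled to a common median absolute deviation, and between -1.28 and -0.92 when 1 array was left out. Its call was lost without array 1, and it could not be tested without array 3 or over genes on all 4 arrays, so the count of called cytoskeleton genes lay between 0 and 1 when an array was left out and was 0 over genes on all 4 arrays. *betaTub56D* and *chic* stayed below 0 in all 13 alternatives and *tsr* in the 11 that could test it, and the ratio of *chic* with 1 probe per gene was -0.56. No cytoskeleton gene was called over genes on all 4 arrays, without array 1 or without array 3, and in the other alternatives *cher* was the only one called. The cytoskeleton genes tested numbered 8 over genes on all 4 arrays, 9 without array 3 and 34 without array 1. They numbered 33 over genes on at least 3 arrays, and 46 or 47 in the others. In limma the number with an adjusted p under 0.05, *cher* included, was 1 as reported and lay between 0 without array 3 and 6 with the 4 arrays as separate values. Over all genes 49 were called among the 278 genes on all 4 arrays, 184 when unnamed probes and those with several genes were added, and 0 to 123 when 1 array was left out, with 0 of 358 without array 3 (67 at an unadjusted p under 0.05) and 55 without array 2. The cause of these changes was not tested. Fewer genes were tested where an array was left out. Calls numbered 123 of 1620 without array 4 and 55 of 1529 without array 2, against 110 of 1659 as reported. Without array 1 there were 99 of 1155, and without array 3 there were 0 of 358. No paired analysis was possible because all samples belong to 1 group. Few values on array 4, with 1108 of 16416, limit extraction 2.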

Other observations

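Another 24 cytoskeleton genes had a value in 1 extraction only and entered no test. Their log2 ratios had a median of -0.06 and lay between -0.68 for *Hem*, a gene of the complex that activates branching of actin filaments, and 0.33 for *DCTN1-p150*, which encodes a subunit of dynactin, the partner of the dynein motor. None reached a 2-fold change on the arrays that held it.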
